A study of Mus musculus with 16 samples.

Results

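H3K27me3 peaks on chromosome 15 of the mouse were examined in 8 peak lists from a spindle metaplastic breast tumour line. The lists held 106385 peaks in all, and 10547 of these lay on chromosome 15. Merged wherever peaks of any library overlapped, they made 4728 regions of the 61441 on all chromosomes. All peaks placed on that chromosome were taken, with no threshold on their size or strength. The chromosome had been selected on these same lists for its large share of peaks. Its excess over other chromosomes, in peaks, covered length and marked genes alike, is therefore given as a description, without a test. The tests are between the 2 groups of libraries.

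The cells are CCN6KOT, primary tumour cells that lack Ccn6 (also called WISP3) in both groups. One group of 4 libraries came from cells that received dnTCF4, a dominant-negative construct against Wnt and beta-catenin signalling, by lentivirus. The other 4 came from control cells, called PPGS in the labels. The protocol gives them a control lentivirus and the design text calls them parental. Both groups were grown in serum and treated with puromycin, per the labels. The 8 libraries made with IgG were not used. The labels do not tie the 4 libraries of a group to separate cultures. The tests therefore rest on a library-to-library spread that may be technical. All 8 carry the name of 1 line.

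H3K27me3 is trimethylation of lysine 27 of histone H3, placed by the Polycomb repressive complex whose catalytic subunit is usually Ezh2. It spreads over silent developmental genes, often as broad domains, and Hox clusters are its best known targets. Chromosome 15 carries one of these, the Hoxc cluster, next to the type II keratin genes. Of the markers of the tumour's cell types, Krt8 and Krt18, keratins of simple epithelium on this chromosome, had no peak at either end in any library. None of 5 mesenchymal markers, among them Vim, Twist1, Fn1 and Col1a1, had one either, nor did the endothelial markers Pecam1 and Cdh5. Over all chromosomes, 15.8% of coding genes had a peak within 2 kb of either end in at least 1 library. A marker without a peak is thus like most genes. Epcam and Cdh1, epithelial adhesion genes, had a peak in 2 and 1 dnTCF4 libraries and in 3 and 2 PPGS libraries. The epithelial markers Cldn7 and Esrp1 had one in 1 and 0 dnTCF4 libraries and in 1 and 1 PPGS libraries. Of the adipocyte markers, Plin1 had one in 1 PPGS library and Adipoq in none. The immune markers Cd3e, Ptprc and Lyz2 had a peak in 1, 0 and 0 dnTCF4 libraries and in 2, 1 and 1 PPGS libraries. The luminal marker Gata3 had one in 1 dnTCF4 and 2 PPGS libraries, the basal marker Krt14 in 1 of each, and Elf5 and Trp63 in none. A mark on chromatin does not show which cells were present.

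The lists differed widely in length, and every comparison below has to be read against this. The dnTCF4 lists held 21492, 191, 4885 and 1838 peaks in libraries 1 to 4, and the PPGS lists held 426, 738, 54070 and 22745. On chromosome 15 the dnTCF4 lists held 2244, 34, 896 and 342 peaks and the PPGS lists 121, 192, 4075 and 2643. Each group thus had long and short lists, and the 2 groups overlapped. The lists give no read counts, so depth is unknown. Neither the number of reads from chromosome 15 nor its DNA copy number in these cells was measured, and their part in the shares below was not tested. A block of chromosome 9 from 7 to 8.5 Mb with many adjacent peaks was left out of the shares of peaks and of covered length. Genes marked by peaks of that block stayed in the counts and shares of marked genes.

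Some genes and sequences on this chromosome show what the peaks covered. Lalba encodes the milk protein alpha-lactalbumin, and Krt73 encodes a keratin of the inner root sheath of the hair. Both genes were marked in 7 of 8 libraries, where a gene is called marked if a peak lies within 2 kb of either annotated end. Upk3a encodes a uroplakin of the bladder lining and was marked in 6 libraries. Tuba1b encodes a tubulin that nearly all cells use and was marked in none. Their promoters are shown because peaks lay over the first 3 of these and far from the last. Each has 250 bases before the start and 50 after it, from RefSeq on GRCm38.p6, 5′ to 3′ along the gene, with the dinucleotide CG in capitals.

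Lalba (chr15:98482634-98482933, minus strand): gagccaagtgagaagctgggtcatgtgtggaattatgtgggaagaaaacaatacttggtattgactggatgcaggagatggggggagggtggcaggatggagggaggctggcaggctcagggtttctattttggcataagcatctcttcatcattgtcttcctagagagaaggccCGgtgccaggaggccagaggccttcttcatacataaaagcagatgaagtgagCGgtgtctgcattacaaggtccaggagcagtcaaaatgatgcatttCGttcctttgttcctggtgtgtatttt
Krt73 (chr15:101802311-101802610, minus strand): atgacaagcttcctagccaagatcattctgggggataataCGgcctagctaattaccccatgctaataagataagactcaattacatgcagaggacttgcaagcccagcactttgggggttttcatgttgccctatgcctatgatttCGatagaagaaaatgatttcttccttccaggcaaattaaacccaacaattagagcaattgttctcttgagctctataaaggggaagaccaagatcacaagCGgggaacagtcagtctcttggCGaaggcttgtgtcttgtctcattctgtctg
Upk3a (chr15:85016891-85017190, plus strand): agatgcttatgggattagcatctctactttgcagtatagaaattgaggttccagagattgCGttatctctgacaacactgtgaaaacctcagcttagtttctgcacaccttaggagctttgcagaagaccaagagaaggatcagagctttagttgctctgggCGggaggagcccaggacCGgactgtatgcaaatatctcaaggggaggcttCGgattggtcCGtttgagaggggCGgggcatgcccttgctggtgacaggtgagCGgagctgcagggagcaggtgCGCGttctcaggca
Tuba1b (chr15:98934341-98934640, minus strand): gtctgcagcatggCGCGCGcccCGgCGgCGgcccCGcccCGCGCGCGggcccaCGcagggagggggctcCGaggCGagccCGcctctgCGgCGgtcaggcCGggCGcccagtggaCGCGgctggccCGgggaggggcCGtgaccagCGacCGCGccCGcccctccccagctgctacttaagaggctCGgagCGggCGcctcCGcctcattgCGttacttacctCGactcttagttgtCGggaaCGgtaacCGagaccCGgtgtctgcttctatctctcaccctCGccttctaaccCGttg

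The Lalba promoter holds 3 CG, the Krt73 promoter 4, the Upk3a promoter 9 and the Tuba1b promoter 39. CG reads the same on both strands, and 94.7% of the 32619 promoters in the RefSeq table hold at least 1. The median is 7, and 4.48% of promoters hold as many as Tuba1b or more. The 4 promoters shown do not stand for marked and unmarked genes. Those of the unmarked genes Golph3, Tuba1a and Tuba1c hold 36, 16 and 7 CG, and that of Slc4a8, marked in 6 libraries, holds 21. All 300 bases of the Lalba promoter lay under a peak in dnTCF4 1 and PPGS 3. The 300 bases of Krt73 did so in dnTCF4 1, PPGS 3 and PPGS 4. For Upk3a, peaks covered 108 bases in dnTCF4 1, against 300 in PPGS 3 and 72 in PPGS 4. No peak touched the promoter of Lalba in the other 6 libraries, nor that of Krt73 or Upk3a in the other 5. Gsdmc3, Syce3, Cela1, Krt72, Krt76 and Hoxc4, each marked in 6 or 7 libraries, had no peak over their promoter in any library. For Gsdmc3 the nearest peak was 9.96 kb away, in PPGS 4. A gene called marked thus need not have a peak over its promoter. The peak nearest to the Tuba1b promoter was 60.7 kb away in dnTCF4 1, the closest of any library. A promoter was in the table for 422 of the 776 coding genes of the chromosome and for 10 of the 23 genes marked most often (43.5%). A comparison of base composition between marked and unmarked genes is therefore void and none is made.

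The Hoxc cluster also holds a microRNA, whose arms are shown because it is the 1 hairpin of 35 on the chromosome that any peak covered. Mir196a-2 lies between Hoxc10 and Hoxc9 at chr15:102973350-102973434 on the plus strand, and miR-196a is known to act on Hox messages. The mature arms are given with the seed, bases 2 to 8, in capitals.

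mmu-miR-196a-5p: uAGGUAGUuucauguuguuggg
mmu-miR-196a-2-3p: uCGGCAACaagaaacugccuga

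The 2 arms have different seeds. A peak covered the hairpin only in PPGS 3. A peak lay within 2 kb of it in all 4 dnTCF4 libraries and in PPGS 1, 3 and 4, so in most lists the mark stood near the hairpin and not over it. Of the 35 hairpins, 5 had a peak within 2 kb in any library.

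Chromosome 15 held more than its share of the mark in every list. It makes up 3.95% of annotated length (103.9 of 2631 Mb) and holds 3.59% of coding genes, so it is slightly poor in genes, with 7.47 per Mb against 8.22 over all chromosomes. Of the peaks outside the chromosome 9 block, it held 10.5%, 26.4%, 18.7% and 19.6% in dnTCF4 1 to 4. In PPGS 1 to 4 it held 33.5%, 28.9%, 7.55% and 11.7%. The widest 95% Wilson interval was that of dnTCF4 2, the shortest list, at 19.5% to 34.6%, and the interval covers counting error only.

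Measured by length, the excess was larger still. Of the bases under peaks, chromosome 15 held 14.3%, 27.1%, 23.8% and 23.4% in dnTCF4 1 to 4, and 40.1%, 32.8%, 10.8% and 16.1% in PPGS 1 to 4. Set against its length, this is 3.63, 6.85, 6.02 and 5.92 times in the dnTCF4 lists and 10.2, 8.30, 2.74 and 4.07 times in the PPGS lists. It ranked first of 20 chromosomes in all 8 lists. The chromosome next in rank was 2 in dnTCF4 1, 3 and 4 and in PPGS 4, 17 in dnTCF4 2 and in PPGS 1 and 2, and 19 in PPGS 3. In dnTCF4 2 the lead was small, at 6.85 against 6.65 times for chromosome 17. The first rank holds for cover set against length only. Chromosome 2, which is longer, held more covered bases than chromosome 15 in dnTCF4 1, 3 and 4 and in PPGS 3. Its shares there were 21.4%, 32.5%, 28.0% and 13.7%, or 3.09, 4.70, 4.05 and 1.98 times its length share. In the other lists it held fewer than chromosome 15.

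**Figure D1:**
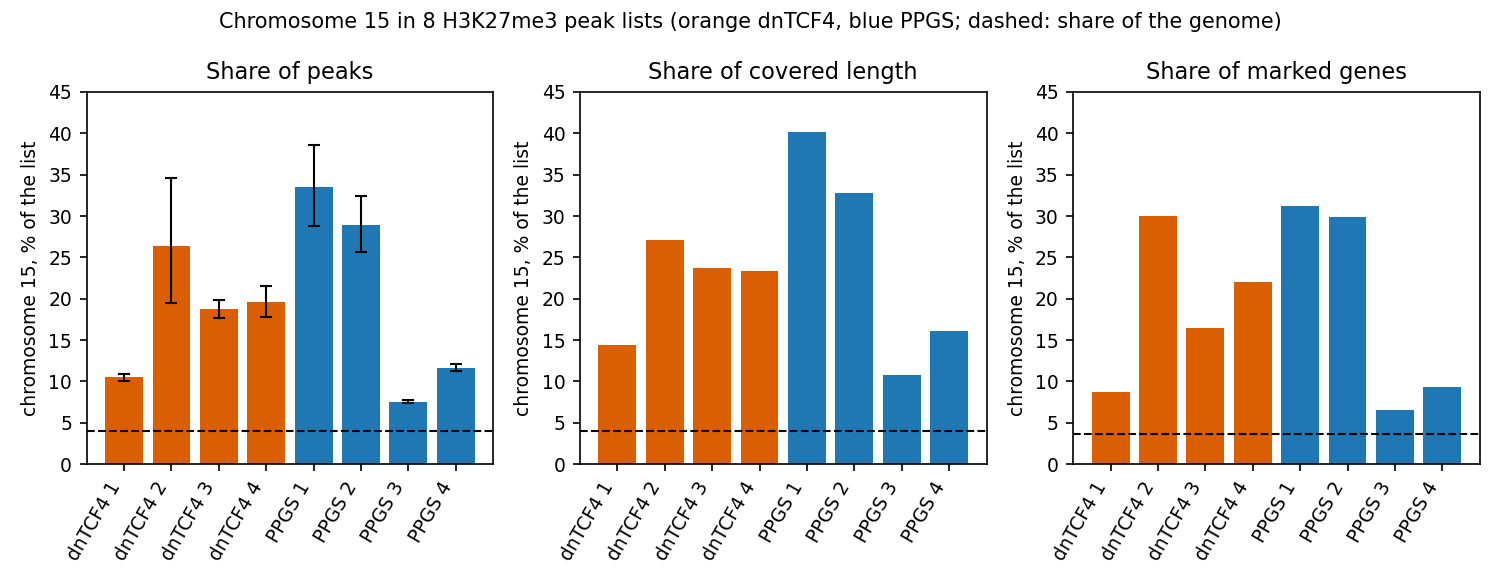
Share of chromosome 15 among peaks (left), bases under peaks (middle) and marked genes (right) in each list, in percent, with dnTCF4 libraries in orange and PPGS libraries in blue. Bars on the left carry 95% Wilson intervals, and the dashed lines give the chromosome's share of genome length (left and middle, 3.95%) and of coding genes (right, 3.59%). All 24 bars stand above their line, and the bars of the short lists are the tallest.

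These shares did not differ between the groups beyond the spread of their libraries. The share of covered length averaged 22.1% ± 5.45 in dnTCF4 libraries and 24.95% ± 13.8 in PPGS libraries (SD, n = 4 each), and the share of peaks 18.8% ± 6.50 and 20.4% ± 12.7. The exact two-sided permutation test over the 70 ways to divide the libraries gave p = 0.686 and p = 0.857, both with an adjusted p of 0.96 or more over the 7 measures tested. The smallest p that 4 against 4 libraries can give is 0.0286. Within each group the shortest list had the highest share and the longest list the lowest. The absolute length under peaks on the chromosome ran from 11.6 to 2348 kb in dnTCF4 libraries and from 55.3 to 5670 kb in PPGS libraries. The geometric means were 232 kb in dnTCF4 libraries and 517 kb in PPGS libraries, and the exact permutation test on log10 length gave p = 0.629.

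The excess was present among the highest-ranked peaks as well as in whole lists. With each list held to its top 129 peaks by −log10 q, the length of the shortest list outside the block, chromosome 15 held 10.1%, 26.4%, 18.6% and 14.0% of peaks in dnTCF4 1 to 4. It held 31.8%, 17.1%, 11.6% and 10.9% in PPGS 1 to 4. Held to equal length, the lists thus ran over a similar range in both groups. In the long lists the share was highest in the middle ranks. In dnTCF4 1 it was 10.6% of the top 500, 14.3% of the top 5000 and 10.5% of all peaks. In PPGS 3 these shares were 11.8%, 13.4% and 7.55%, so the weakest calls of the longest list fell more often on other chromosomes.

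**Figure D2:**
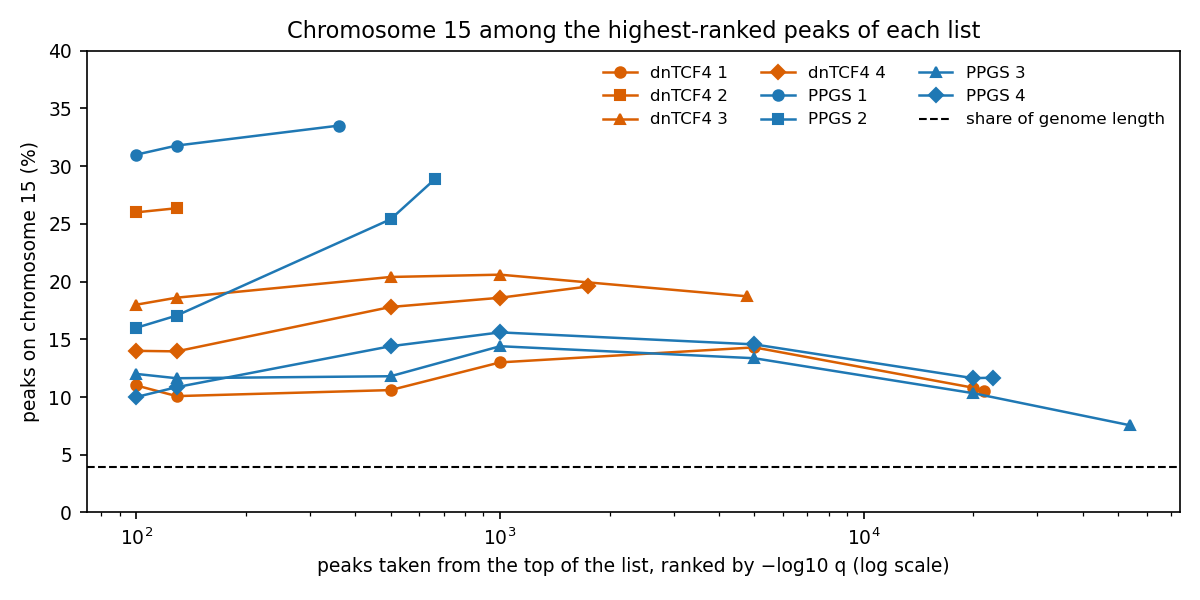
Share of peaks on chromosome 15 (percent) among the top-ranked peaks of each list, with the number of peaks taken on a log axis, dnTCF4 libraries in orange and PPGS libraries in blue. The dashed line is the chromosome's share of genome length (3.95%), and every point, from the top 100 to the whole list, lies above it.

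The mark was uneven along the chromosome and heaviest at its distal end. In windows of 5 Mb, the last one, from 100 Mb to the last annotated base at 103.9 Mb with 105 coding genes, held 20.8%, 48.3%, 30.1% and 34.2% of the chromosome's covered length in dnTCF4 1 to 4. In PPGS 1 to 4 it held 39.4%, 31.1%, 13.3% and 18.1%. Peaks covered 12.5%, 0.143%, 5.0% and 1.45% of that window in the dnTCF4 lists and 0.559%, 0.707%, 19.3% and 11.98% in the PPGS lists. Among 537 such windows of the genome it ranked first in 7 lists and second in PPGS 2. This window holds the Hoxc and keratin clusters. At finer scale, the 1 Mb just before the Hoxc4 start had 24.1, 170.9, 67.4 and 96.5 times the list's genome-wide cover in dnTCF4 1 to 4, and 190.2, 126.6, 10.4 and 24.2 times in PPGS 1 to 4. It was the most covered 1-Mb window of the chromosome in every list except PPGS 3, where the adjacent window was higher, at 11.8 times.

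The excess was not confined to that window. The windows from 75 to 80 Mb and from 80 to 85 Mb, with 158 and 91 coding genes, ranked among the first 24 windows of the genome in every list. In dnTCF4 1 to 4, 11, 10, 11 and 11 of the 21 windows of chromosome 15 lay above the 90th percentile of all windows, against 11, 13, 10 and 12 in PPGS 1 to 4. With the last window left out of the count, the rest of the chromosome still held 3.08, 4.23, 4.70 and 4.39 times its length share in dnTCF4 1 to 4 and 7.59, 6.61, 2.50 and 3.56 times in PPGS 1 to 4.

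Some stretches were nearly bare. The window from 15 to 20 Mb, with 2 coding genes, had no peak in any list, and those from 20 to 25 Mb and from 45 to 50 Mb, with 4 and 2 genes, ranked 421 to 475 of 537 in dnTCF4 1, PPGS 3 and PPGS 4. All 5 cadherin genes listed on the chromosome, Cdh6, Cdh9, Cdh10, Cdh12 and Cdh18, which encode adhesion proteins of neurons and other cells, were unmarked in all 8 lists. The chromosome beyond 69.3 Mb held 70.9% ± 11.4 of its covered length in dnTCF4 libraries and 58.7% ± 19.0 in PPGS libraries (SD, n = 4 each). That difference did not pass the exact permutation test (p = 0.314, adjusted p = 0.96).

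Peaks on chromosome 15 were wider than peaks elsewhere in the same list, while their fold enrichment was nearly the same. The median width was 613, 255, 495.5 and 358 bp in dnTCF4 1 to 4, against 473, 253, 377 and 291 bp on the other chromosomes. In PPGS 1 to 4 it was 348, 335, 768 and 603 bp, against 266.5, 295.5, 585 and 455 bp elsewhere. The medians thus stood apart in 7 lists and differed by 2 bp in dnTCF4 2, the shortest. Fold enrichment over background, the authors' own value for each peak, had a median of 3.47, 4.99, 4.00 and 4.46 in dnTCF4 1 to 4, against 3.5, 4.99, 4.06 and 4.52 elsewhere. In PPGS 1 to 4 it was 4.55, 4.57, 2.97 and 3.31, against 4.53, 4.68, 3.01 and 3.40 elsewhere.

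For neither measure did the difference between the groups pass its test. The log2 ratio of median widths, chromosome 15 over the rest, averaged 0.27 ± 0.18 in dnTCF4 libraries and 0.34 ± 0.11 in PPGS libraries (SD, n = 4 each). The log2 ratio of median folds averaged -0.014 ± 0.0098 and -0.021 ± 0.021. The exact permutation test gave p = 0.514 for width and p = 0.629 for fold, both with an adjusted p of 0.96.

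Wide peaks were over-represented in the long lists. Peaks of at least 5 kb numbered 43 on chromosome 15 and 61 on all others in dnTCF4 1, and 2 and 2 in dnTCF4 3. They numbered 185 and 608 in PPGS 3, and 37 and 29 in PPGS 4. The other 4 lists had none on any chromosome outside the block. In the union, 220 of the 1022 regions of at least 5 kb (21.5%) and 42 of the 108 of at least 10 kb (38.9%) lay on chromosome 15. The widest peak on the chromosome was 12025 bp in dnTCF4 1 and 23192 bp in PPGS 3.

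**Figure D3:**
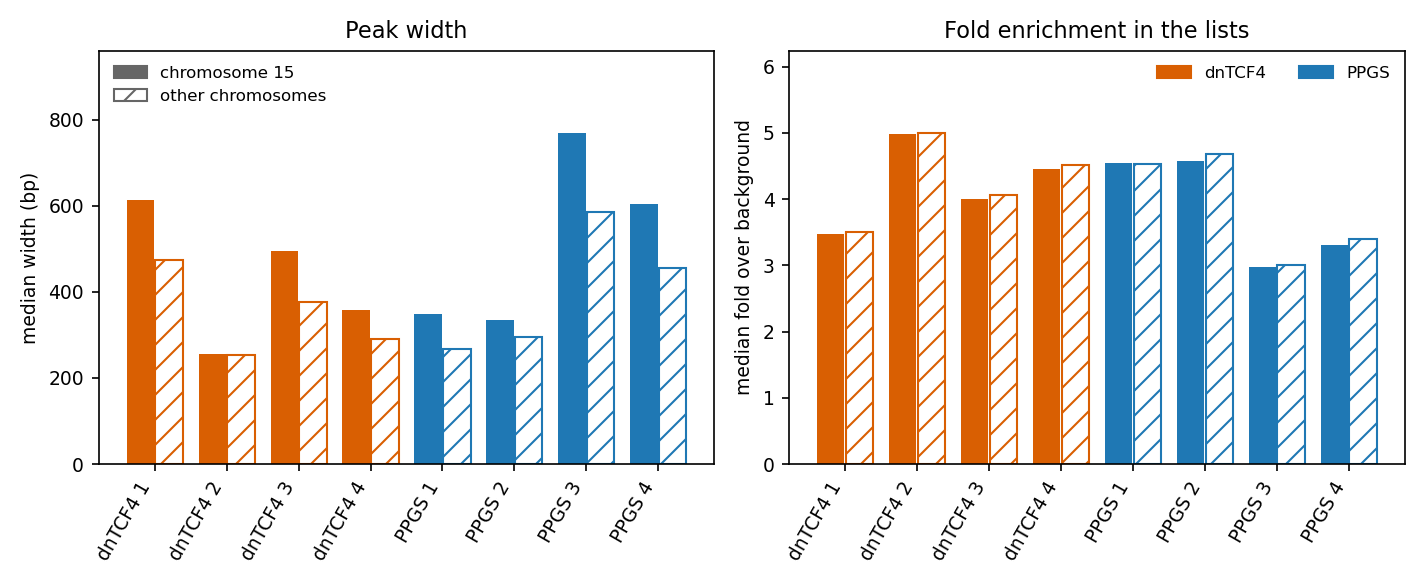
Median width in bp (left) and median fold enrichment as deposited (right) of peaks on chromosome 15 (filled bars) and on all other chromosomes outside the chromosome 9 block (hatched bars), with dnTCF4 libraries in orange and PPGS libraries in blue. Filled bars are taller on the left in every library, by only 2 bp in dnTCF4 2, and nearly level with the hatched bars on the right.

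Most peaks of the shorter lists overlapped the longest list of either group. Of the chromosome 15 peaks of dnTCF4 2, 3 and 4, 100%, 83.7% and 93.0% overlapped a peak of dnTCF4 1. On the other chromosomes these shares were 98.9%, 82.2% and 91.0%. Of those of PPGS 1, 2 and 4, 97.5%, 97.9% and 83.1% overlapped a peak of PPGS 3. How much short lists shared with each other varied. Of PPGS 1 peaks on the chromosome, 27.3% overlapped one of PPGS 2, against 33.75% of its peaks elsewhere. Of dnTCF4 2 peaks on the chromosome, 82.4% overlapped one of dnTCF4 4, against 77.9% elsewhere. Across groups, 97.1%, 93.3% and 96.5% of the peaks of dnTCF4 2, 3 and 4 on the chromosome overlapped a PPGS 3 peak. For PPGS 1 and 2, 89.3% and 91.1% of peaks overlapped one of dnTCF4 1. Of dnTCF4 1 peaks on the chromosome, 81.6% overlapped a PPGS 3 peak, against 78.7% of its peaks elsewhere. For PPGS 4 and dnTCF4 1, lists of similar length, the overlap was lower, with 51.9% of PPGS 4 peaks on the chromosome and 47.4% of those elsewhere overlapping a dnTCF4 1 peak. Between 44.6% and 59.3% of chromosome 15 peaks lay outside genes and outside the 2 kb windows at gene ends, against 52.1% to 59.8% of peaks elsewhere.

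Of the 4728 regions, 112 (2.37%) had a peak in at least 6 libraries, against 0.719% of all regions. Their median width was 6036 bp, 48 overlapped a coding gene, and 43 lay in the last window. Regions of the chromosome with a peak in 1 library had a median width of 425 bp. All its regions had a median of 742 bp, against 585 bp over all chromosomes, and the part of width in the excess was not tested. Only 11 regions had a peak in all 8 libraries. By gene these were Grap2 (chr15:80576289-80582027), an adaptor of T-cell receptor signalling, Hoxc10 and Hoxc9 (chr15:102968682-102977108), and Scn8a (chr15:100980125-100983448), a sodium channel of neurons. Krt77 (chr15:101857309-101863630) and Krt1 (chr15:101832667-101850124), keratins of stratified epithelium, held 1 each. So did Nipal2 (chr15:34676344-34677952), of a family of magnesium transporters, Mroh5 (chr15:73812352-73818763) and Galnt6 (chr15:100723999-100726590), an enzyme of mucin-type glycosylation. The other 3 overlapped no coding gene. One lay 0.968 kb from Hoxc13 (chr15:102901783-102920163), one 4.58 kb from Hoxc4 (chr15:103041439-103059369) and one 36.6 kb from Rtl6 (chr15:84594438-84596228). A library counts if any of its peaks lies in a merged region, so the 8 libraries need not share a site. In the Krt1 region peaks covered 99.97% in PPGS 3, 2.29% in dnTCF4 2 and 1.14% in PPGS 1.

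The Grap2 and Nipal2 regions were covered to different extents in long and short lists. The Grap2 region is 5739 bp wide, and peaks covered 72.0%, 15.3%, 29.7% and 25.4% of it in dnTCF4 1 to 4 and 18.9%, 9.20%, 96.4% and 81.7% in PPGS 1 to 4. Its highest peak stood at a fold of 4.71, 4.99, 5.03 and 5.45 in the dnTCF4 lists and 5.49, 4.54, 4.35 and 4.40 in the PPGS lists. The Nipal2 region is 1609 bp wide, with 94.2%, 20.5%, 81.5% and 41.8% covered in dnTCF4 1 to 4 and 18.8%, 18.6%, 97.8% and 97.2% in PPGS 1 to 4. In both regions dnTCF4 1, PPGS 3 and PPGS 4, the longest lists, covered 72.0% of the interval or more, and the groups overlapped. The Scn8a region was covered most in PPGS 4 (100%) and less in PPGS 3 (46.8%), the longest list.

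The widest region was 23526 bp over Grap2 (chr15:80583093-80606618), just beyond the one above, with 54.1%, 0%, 28.5% and 3.38% covered in dnTCF4 1 to 4 and 11.02%, 12.1%, 98.6% and 52.1% in PPGS 1 to 4. The second, 22619 bp over the neighbouring gene Enthd1 (chr15:80505710-80528328), had a peak in 3 dnTCF4 and 3 PPGS libraries. Over the whole of Enthd1 peaks covered 31.1%, 0%, 11.8% and 1.90% of the gene in dnTCF4 1 to 4 and 0.655%, 0.789%, 56.9% and 25.9% in PPGS 1 to 4. Of the 10 widest regions, 3 flank or overlap named clusters, namely the ones beside Hoxc13 and Hoxc4 and the 17458 bp region at Krt1. Another, of 21333 bp (chr15:102762607-102783939), lies 40.4 kb from Calcoco1 and overlaps no coding gene.

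A larger fraction of genes was marked on chromosome 15 than over the genome in every list. Marked were 175, 6, 101 and 51 of its 776 coding genes in dnTCF4 1 to 4, or 22.6%, 0.773%, 13.02% and 6.57%. The background over all 21631 coding genes was 9.29%, 0.0925%, 2.83% and 1.07%. In PPGS 1 to 4 the numbers were 20, 23, 205 and 154, or 2.58%, 2.96%, 26.4% and 19.8%, against a background of 0.296%, 0.356%, 14.5% and 7.66%. The chromosome's share of all marked genes averaged 19.3% ± 8.99 in dnTCF4 libraries and 19.2% ± 13.1 in PPGS libraries (SD, n = 4 each), with p = 0.971 by the exact permutation test. At least 1 library marked 228 of the 776 genes (29.4%), against 15.8% of all genes, and 23 (2.96%) were marked in 6 or more libraries, against 0.328% of all genes.

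The 23 genes marked most often include 6 of the Hoxc cluster and 3 keratins. Nipal2 was the 1 gene marked in all 8 libraries. Those marked in 7 were Klhdc7b, Syce3, Lalba, Slc11a2, Cela1, Krt72, Krt73, Hoxc9, Hoxc5 and Hoxc4. Slc11a2 encodes an iron transporter, Cela1 an elastase, and Syce3 a protein of the synaptonemal complex of meiosis. Klhdc7b and Syce3 are neighbours whose windows overlap, so their marks share peaks. Those marked in 6 were Rims2 of the synaptic active zone, Gsdmc3, Adcy8, Upk3a, Pkdrej, Panx2, Slc4a8, Krt76, Sp7, Hoxc13, Hoxc10 and Hoxc8. Pkdrej is a gene of the testis and Sp7 encodes osterix, a transcription factor of bone-forming cells.

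Lalba had the largest mean cover of these 23. Of its better covered end window of 4 kb, peaks held 100%, 4.35%, 59.0% and 62.3% in dnTCF4 1 to 4 and 23.8%, 0%, 100% and 65.7% in PPGS 1 to 4. The whole gene (chr15:98480400-98482934) lay under a single peak of 9282 bp in dnTCF4 1 and of 10609 bp in PPGS 3. Krt73 had 100%, 0%, 29.9% and 15.5% of its window covered in dnTCF4 1 to 4 and 19.1%, 6.37%, 83.1% and 79.3% in PPGS 1 to 4. Sp7 was the gene with the largest surplus of dnTCF4 libraries among the 23, marked in 4 dnTCF4 and 2 PPGS libraries, with p = 0.429 by Fisher's exact test and an adjusted p of 1 over all genes.

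The Hoxc cluster, 9 homeobox genes that set position along the body axis, spans 115.7 kb (chr15:102921131-103036856) and was the 1 list of 13 with every gene marked in some library. Peaks covered 62.0%, 0.491%, 31.1% and 9.52% of it in dnTCF4 1 to 4 and 4.11%, 5.35%, 68.9% and 48.7% in PPGS 1 to 4. The 3 genes marked least often were Hoxc11 (3 dnTCF4 and 2 PPGS libraries), Hoxc12 and Hoxc6 (2 of each). The start of Hoxc4 in the promoter table lay outside every peak, although a peak stood 0.188 kb from its promoter window in dnTCF4 1 and 0.099 kb in PPGS 3. Windows of neighbouring Hoxc genes overlap, and their marks are not independent.

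The type II keratins, the basic partners of epithelial intermediate filaments, were marked in part. Across the 683.7 kb of the cluster (chr15:101348315-102032026), peaks covered 16.1%, 0.0905%, 5.77% and 1.42% in dnTCF4 1 to 4 and 0.508%, 0.775%, 29.8% and 17.7% in PPGS 1 to 4. Of 26 keratin genes, 18 (69.2%) were marked in at least 1 library, where 29.4% of all coding genes on the chromosome were. Krt73 and Krt72 were marked in 7 libraries and Krt76, a keratin of the palate, in 6. Krt1 (3 dnTCF4 and 2 PPGS libraries), Krt77 and Krt86 (2 and 3 each) were level with 5. Krt5, the basal keratin, was marked in 0 dnTCF4 libraries and in PPGS 3 and 4.

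Other lists are to be read against the 29.4% of all coding genes on the chromosome that were marked in at least 1 library. Of 17 further developmental transcription factors, 4 (23.5%) were marked in some library, namely Sp7, Grhl2 (3 dnTCF4 and 2 PPGS libraries), Osr2 (1 and 3) and Sox10 (2 and 2). Grhl2 maintains epithelial identity, Osr2 acts in limb and palate, and Sox10 in neural crest. Trps1, a zinc finger factor of 235.9 kb, had no peak anywhere in the gene. Of 16 channel and synaptic genes 10 (62.5%) were marked, among them Adcy8 (3 and 3), the potassium channel gene Kcnh3 and the postsynaptic scaffold gene Shank3 (3 and 2 each). Scn8a and the glutamate transporter gene Slc1a3 (2 and 2 each) and the potassium channel gene Kcnj4 (1 and 3) followed with 4 libraries each. Adcy8, an adenylyl cyclase of brain, had 12.03%, 0%, 2.64% and 1.39% of its 223.3 kb covered in dnTCF4 1 to 4 and 0%, 1.05%, 42.5% and 21.0% in PPGS 1 to 4.

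Receptors and mammary genes were marked in part. Prlr, the prolactin receptor, was marked in 2 dnTCF4 and 3 PPGS libraries, Csf2rb in 3 and 2, Lifr in 1 and 2 and Il7r in 0 and 1. The 4 other receptor genes listed, Ghr, Osmr, Csf2rb2 and Il2rb, were unmarked. For Prlr, peaks held 65.2%, 0%, 45.5% and 0% of the better covered end window in dnTCF4 1 to 4 and 0%, 21.4%, 67.9% and 59.3% in PPGS 1 to 4. Besides Lalba, the secretory list had Mal2 and Gsdmc (2 and 2 each) and Aqp6 (0 and 1). Among 14 matrix and secreted genes 6 (42.9%, against 29.4% over the chromosome) were marked, with Col2a1, the collagen of cartilage, and Col14a1 in 2 and 2 libraries. The Ly6 family, small surface proteins, had 2 of 15 genes marked (13.3%), Ly6h (3 and 2) and Gml (2 and 1).

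The construct acts on the Wnt pathway. Of 10 Wnt pathway genes listed, 5 were marked in some library (29.4% over the chromosome), and the mean number of libraries per gene was 1, against 0.947 over all 776 genes. These were the receptor Fzd6 (3 dnTCF4 and 1 PPGS library), the R-spondin ligand Rspo2 (1 and 2), Ctnnd2 (0 and 1), the ligand Wnt1 (1 and 0) and Celsr1 (0 and 1). For Fzd6, peaks held 35.0%, 0%, 12.3% and 6.12% of the better covered end window in dnTCF4 1 to 4 and 0%, 0%, 44.9% and 0% in PPGS 1 to 4. Myc, a beta-catenin target, had no peak over the gene or its ends in any list, and the ligand genes Wnt7b and Wnt10b were unmarked. Of the CCN family, to which the deleted gene belongs, Ccn3 was marked in PPGS 3 only and Ccn4 in none.

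Genes that most cells use were free of the mark at their ends. None of 24 ubiquitous genes and none of 8 chromatin genes, among them Cbx5, Cbx6, Cbx7 and Ep300, was marked in any of the 8 lists, where 228 of all 776 genes on the chromosome were marked in at least 1.

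**Figure D4:**
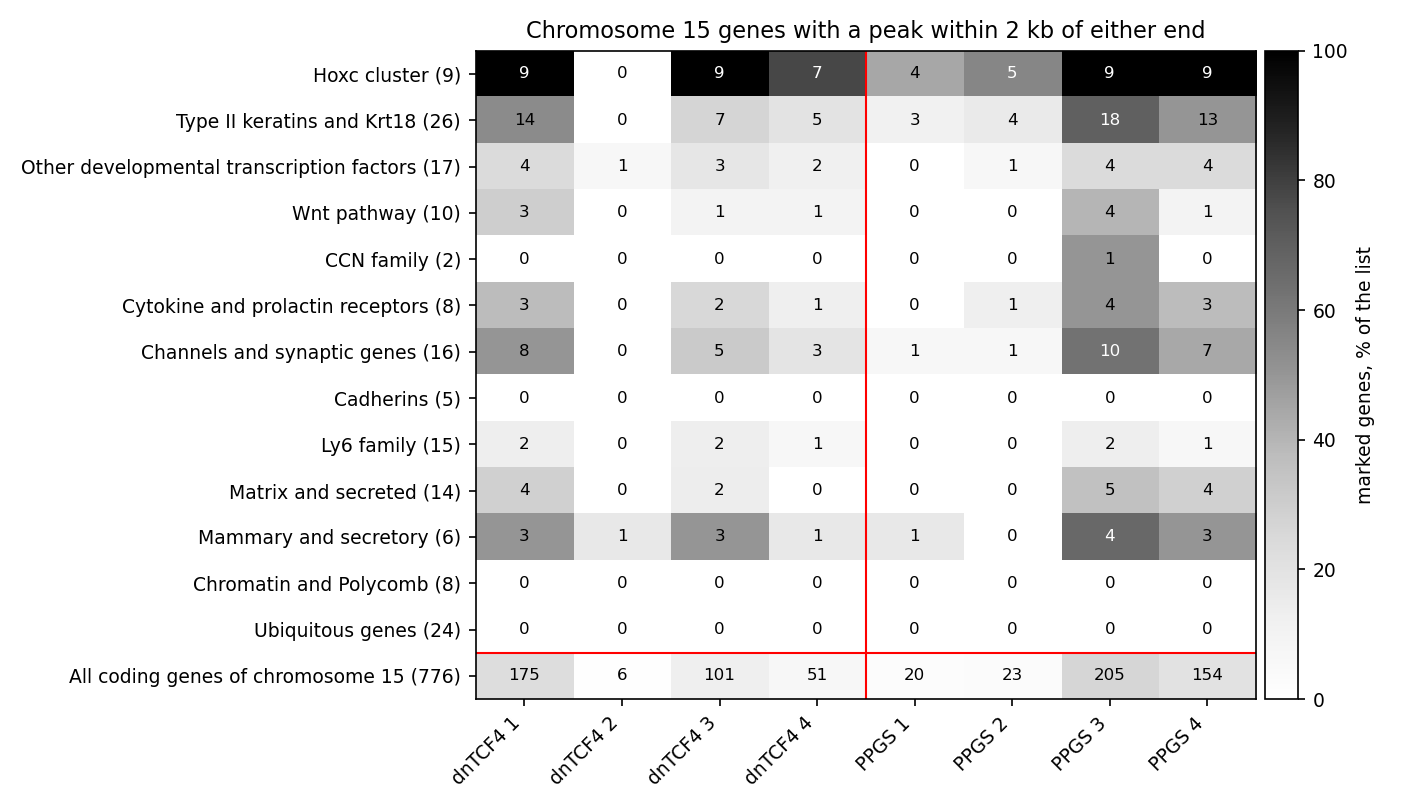
Number of genes with a peak within 2 kb of either end, for 13 lists of chromosome 15 genes and for all 776 coding genes (bottom), in each library, with dnTCF4 libraries left of the vertical line and PPGS libraries right of it. Shading gives the percent of the list that is marked, and list sizes are in brackets. The Hoxc cluster is fully marked in dnTCF4 1 and 3 and in PPGS 3 and 4, while cadherin, chromatin and ubiquitous genes are at 0 throughout.

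Few genes were marked in several libraries of 1 group and none of the other. Genes marked in at least 2 dnTCF4 and 0 PPGS libraries numbered 1, which is 0.129% of the chromosome's genes against 0.0601% of all genes. This was Cdpf1 (chr15:85806972-85811697), with 13.9% of its better covered window under peaks in dnTCF4 1 and 8.50% in dnTCF4 3. Without PPGS 3 the count was 9, and without dnTCF4 1 or dnTCF4 3 it was 0. The neighbour of Cdpf1, Pkdrej, was marked in both groups. In the other direction there were 16 genes (2.06%, against 1.42% of all genes), and all 16 were marked in exactly PPGS 3 and PPGS 4, the longest control lists. The first by position were Agxt2, Npr3, Tas2r119, Snx31, 9330182O14Rik, Sybu, Samd12, Tnfrsf11b, Slc22a22 and Ly6g2. Without PPGS 3 or without PPGS 4 this count was 0, and without dnTCF4 1 it was 57. Npr3, a clearance receptor for natriuretic peptides, had 0% of its window covered in all dnTCF4 libraries and 0%, 0%, 59.5% and 9.92% in PPGS 1 to 4. By Fisher's exact test over all 21631 genes, 0 genes had p under 0.05, and the lowest p on the chromosome was 0.429. The smallest p that 4 against 4 libraries allow is 0.0286, so after adjustment over that many genes a few genes could not have passed.

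Regions divided in the same way. With a peak in at least 2 dnTCF4 and 0 PPGS libraries there were 23 (0.486%, against 0.216% of all regions), and with at least 2 PPGS and 0 dnTCF4 libraries 596 (12.6%, against 9.84%). Of the 596, 587 were in exactly PPGS 3 and 4. Without PPGS 3 the 2 counts were 90 and 8, without PPGS 4 the control count was 7, and without dnTCF4 1 they were 0 and 1109. The 1 region with 3 dnTCF4 and 0 PPGS libraries overlaps Mettl7a1 (chr15:100305839-100307152), with 91.0%, 0%, 15.8% and 82.0% covered in dnTCF4 1 to 4. In the same gene a second region (chr15:100321737-100323894) was covered in dnTCF4 1 and 4, and 2 regions of Enpp2, the gene of autotaxin (chr15:54921384-54924101 and chr15:54918836-54919773), in dnTCF4 1 and 3.

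In the other direction 4 regions had a peak in 0 dnTCF4 and 3 PPGS libraries. One overlaps Rspo2 (chr15:43136928-43137526), with 0%, 38.9%, 100% and 40.6% covered in PPGS 1 to 4, and one Fer1l6 (chr15:58575726-58576002), with 0%, 69.7%, 75.8% and 99.6%. The others lie 48.8 kb from Osr2 (chr15:35245512-35247337) and 13.5 kb from Elfn2 (chr15:78732238-78733191). None of these regions was tested singly.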

How the data were processed

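H3K27me3 immunoprecipitates and IgG controls were prepared by ChIPmentation, per the labels' protocols. The submitters' processing notes name MACS2 2.1.2 and the build mm10, with Bowtie2 2.3.4.1, SAMtools 1.2, bedtools 2.28.0, Picard 2.20.2, cutadapt and Trim Galore, and do not say how replicates were treated. There is 1 peak list per library. The deposited columns hold the authors' score, a fold enrichment (linear ratio over background) and −log10 p and −log10 q values per peak. The lowest −log10 q is 1.01. No read depth is given. Genes, gene ends and sequences came from RefSeq on GRCm38.p6, the same assembly as mm10.

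With Python 3.11.15, pandas 2.3.3 and scipy 1.17.1, bases under peaks were counted once per library. A gene was called marked when a peak touched a 2 kb window at either side of an annotated end. Regions were the union of all lists. Groups were compared over 4 against 4 libraries by exact two-sided permutation with Benjamini-Hochberg adjustment over 7 measures, and genes by Fisher's exact test over 21631 genes. The functions were tested on simulated lists. Named genes were those marked in 6 or more libraries, the Hoxc cluster, up to 4 leading members of each other list, up to 10 genes of 1 group only, and genes in the widest regions, with genes tied in number of libraries. Cadherins, Ghr, Osmr, Csf2rb2, Il2rb, Wnt7b, Wnt10b, Celsr1, Myc, Trps1 and single ubiquitous or chromatin genes were named in addition. Of 162 list entries 160 matched. The chromosome, members and lists were chosen with earlier results of these data known. Alternatives were a stricter minimum, equal lists, other windows and merging, a replicate block and leaving out each library.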

Additional observations from a re-analysis of the deposited data

Results flagged for a closer look

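One library stood apart from the others of its group. The log2 ratio of the median peak width on chromosome 15 to that on the other chromosomes was 0.18 in PPGS 2, against 0.38 to 0.41 in PPGS 1, 3 and 4. Its gap to the nearest library made up 0.905 of the group's range. This is above Dixon's critical value for a group of 4, which chance passes in about 1 group of 20. There are 7 measures in each of the 2 groups, so 1 such value can arise by chance. In PPGS 2 the median width was 335 bp on chromosome 15 and 295.5 bp elsewhere. The ratio was lower still in dnTCF4 2, at 0.011 against 0.30 to 0.39 in dnTCF4 1, 3 and 4, but did not pass that value.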

How the results depend on the processing

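None of the 7 group tests passed under any alternative, though 3 against 2 libraries cannot give p below 0.1. Over the 99 recomputed differences the lowest adjusted p was 0.42, 82 kept their direction and 17 turned. The 82 include the 7 differences with the replicate block, which equal the main ones by construction and could not turn. All differences are dnTCF4 minus PPGS. The share of marked genes turned to -2.97 points with −log10 q of at least 2, -3.43 with equal lists and -0.23 with gene bodies. It turned to -3.31 with start windows, which also limit the genes to those with a RefSeq promoter. With start windows the share itself averaged 9.87% in dnTCF4 and 13.2% in PPGS libraries, against 19.3% and 19.2% in the main setting. With −log10 q of at least 2 it averaged 23.6% and 26.5%. With lists of at least 1000 peaks alone (3 dnTCF4, 2 PPGS), the share of peaks turned to 6.65 points and that of covered length to 7.04. Without the last window, an alternative added after seeing the data along with the other measures in those 5 libraries, the fold ratio turned to -0.0044. Leaving out single libraries moved the difference in share of covered length between -7.53 and 2.24, of peaks between -5.92 and 2.74, of marked genes between -4.15 and 4.09, in log10 length between -0.68 and 0.087, and in width ratio between -0.12 and 0.015. For the fold ratio the range was 0.00065 to 0.016 and for the share beyond 69.3 Mb 6.55 to 20.6 points.

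Counts moved with several settings. With −log10 q of at least 2, the dnTCF4-only genes and regions numbered 2 and 10, PPGS-only regions 111 and regions in 6 libraries 26. With equal lists, dnTCF4-only and PPGS-only genes numbered 2 and 1, regions 7 and 1, and regions in 6 libraries 4. The dnTCF4-only genes numbered 0 with windows of 1 kb, 2 with gene bodies, 3 with start windows (again in the genes with a promoter only) and 0 with at least 0.5 of a window covered, where PPGS-only genes numbered 5. Over the sets without 1 library, dnTCF4-only genes ran from 0 to 9 and regions from 0 to 90, PPGS-only genes from 0 to 57 and regions from 7 to 1109, and regions in 6 of the remaining 7 libraries from 38 to 104. That last rule is stricter by construction, and the cause of the other changes was not tested.

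Whether the replicate numbers pair the libraries cannot be told from the lists. Deviations of same-numbered libraries from their group means over 21 windows correlated at -0.89, 0.63, 0.26 and -0.58. Such values also went with list length. The long list dnTCF4 1 stood at 0.90 and 0.96 with the long lists PPGS 3 and 4, and at -0.86 with the short list PPGS 2. A shared culture or day was not tested. With the replicate block, the exact test over 16 sign patterns gave p = 0.875 for a difference of -2.82 points in share of covered length and 0.25 or more for all 7 measures, where 0.125 is the smallest it can give.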
